A study of Homo sapiens with 4 samples.

Results

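Interferon response genes were followed in a pair of human acute lymphoblastic leukemia lines, SUP-B15 and BV-173. Both are positive for the Philadelphia chromosome, whose product is the kinase BCR-ABL1. RNA was taken from each line exposed for 16 h to STI571 at 10 μmol/l, the kinase inhibitor now called imatinib, and from the same line untreated, which the labels describe as culture without the drug and with no vehicle named. The 4 groups, treated and untreated SUP-B15 and treated and untreated BV-173, held 1 oligonucleotide array each, so every group is 1 culture of 1 line and no response within a line has a replicate check. The members were all probe sets that the platform annotation assigns to exactly 1 of 38 interferon-stimulated genes. These were 48 of 22277 probe sets on the array and covered 37 of the 38 genes, out of 11963 genes with a probe set of their own. STAT2 was not analysed here. A further 2 probe sets, annotated to a member and another gene at once, were left out.

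Type I interferons bind a receptor whose JAK1 and TYK2 kinases start a signal that ends in a complex holding STAT2 and IRF9, which binds the interferon response element in promoters. Type II interferon acts through another promoter element, the gamma activated sequence. The induced genes block viral entry, bind or degrade viral RNA, tag proteins with the ubiquitin-like ISG15 and supply the immunoproteasome and peptide transporter of antigen presentation. In B cells many of them are transcribed at a basal level without infection, and BCR-ABL1 itself signals through STAT proteins.

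The RefSeq table (build GRCh38.p14) gave windows of 300 bases, 250 before and 50 after the transcription start, for 30 members. It held none for IRF7, IFIT2, IFITM2, OAS2, OASL, MX2, GBP2 and TRIM22. The interferon response element was searched as GAAA, any 2 bases and GAAA again, on both strands, and the gamma activated sequence as TTCNNNGAA, which reads the same on both strands. At least 1 window held the first motif in 19 of the 30 members (63.3%), against 1195 of all 27305 genes with a window (4.38%). By window, the motif was in 23 of 43 member windows (53.5%) and in 1255 of all 35116 (3.57%). The second motif was in 11 of the 30 members (36.7%) and in 2560 of all 27305 genes (9.38%). Counted by window, it overlapped the first at 7 places in member windows. The windows of IFI27 overlap and hold the same matches, so their places enter that count more than once. A match is a string of letters and was not measured as bound.

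The 6 windows printed here belong to members on which the results below turn. IFITM1, IFITM3 and ISG15 had higher signal in SUP-B15, GBP1 and EIF2AK2 lower signal in SUP-B15, and ISG20 had the probe set with the greatest change after STI571. They are given 5′ to 3′ on the gene's strand with the response element motif, or its reverse complement, in capitals. The windows lie at chr11:313790-314089, plus strand for IFITM1, chr11:320811-321110, minus strand for IFITM3, chr1:1013247-1013546, plus strand for ISG15, chr1:89065159-89065458, minus strand for GBP1, chr2:37156931-37157230, minus strand for EIF2AK2 and chr15:88638766-88639065, plus strand for ISG20.
IFITM1: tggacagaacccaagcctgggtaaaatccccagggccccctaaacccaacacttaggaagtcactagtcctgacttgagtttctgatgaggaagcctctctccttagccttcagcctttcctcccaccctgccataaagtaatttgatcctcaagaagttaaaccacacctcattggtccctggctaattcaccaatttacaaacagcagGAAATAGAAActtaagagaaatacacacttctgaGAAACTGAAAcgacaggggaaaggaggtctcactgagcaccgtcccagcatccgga
IFITM3: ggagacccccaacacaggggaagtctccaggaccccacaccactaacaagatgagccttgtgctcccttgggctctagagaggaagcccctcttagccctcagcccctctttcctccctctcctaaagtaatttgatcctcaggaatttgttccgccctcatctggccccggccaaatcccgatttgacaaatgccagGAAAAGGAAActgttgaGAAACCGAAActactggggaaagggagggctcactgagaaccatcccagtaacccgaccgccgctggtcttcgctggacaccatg
ISG15: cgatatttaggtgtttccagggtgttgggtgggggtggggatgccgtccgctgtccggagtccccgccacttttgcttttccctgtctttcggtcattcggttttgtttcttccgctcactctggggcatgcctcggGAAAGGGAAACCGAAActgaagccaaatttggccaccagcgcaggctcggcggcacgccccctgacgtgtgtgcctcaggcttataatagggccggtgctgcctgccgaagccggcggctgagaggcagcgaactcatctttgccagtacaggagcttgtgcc
GBP1: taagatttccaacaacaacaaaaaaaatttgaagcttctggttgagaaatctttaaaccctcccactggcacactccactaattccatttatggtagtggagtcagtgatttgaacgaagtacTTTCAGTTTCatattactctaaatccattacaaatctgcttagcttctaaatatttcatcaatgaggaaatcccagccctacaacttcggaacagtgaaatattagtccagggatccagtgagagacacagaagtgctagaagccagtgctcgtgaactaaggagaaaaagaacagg
EIF2AK2: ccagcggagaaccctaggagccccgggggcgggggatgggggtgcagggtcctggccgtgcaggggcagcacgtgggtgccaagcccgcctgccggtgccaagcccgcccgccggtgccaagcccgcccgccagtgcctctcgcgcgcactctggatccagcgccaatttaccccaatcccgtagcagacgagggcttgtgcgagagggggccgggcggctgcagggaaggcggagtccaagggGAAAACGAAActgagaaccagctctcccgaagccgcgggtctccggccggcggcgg
ISG20: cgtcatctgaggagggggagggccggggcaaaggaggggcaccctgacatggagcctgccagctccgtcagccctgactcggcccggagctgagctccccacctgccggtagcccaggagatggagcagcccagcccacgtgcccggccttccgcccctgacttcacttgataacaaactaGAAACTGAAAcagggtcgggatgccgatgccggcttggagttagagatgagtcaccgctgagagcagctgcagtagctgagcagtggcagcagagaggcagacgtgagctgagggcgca
Counting the start as position 0, the motif began at −40 and −6 in IFITM1, at −52 and −35 in IFITM3, at −113 and −107 in ISG15, at −127 in GBP1, at −6 in EIF2AK2 and at −69 in ISG20. Members that were higher in SUP-B15 and members that were lower there thus both carried it. XAF1, UBE2L6 and ADAR, which also differed between the lines, held no match in any of their windows.

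**Figure D1:**
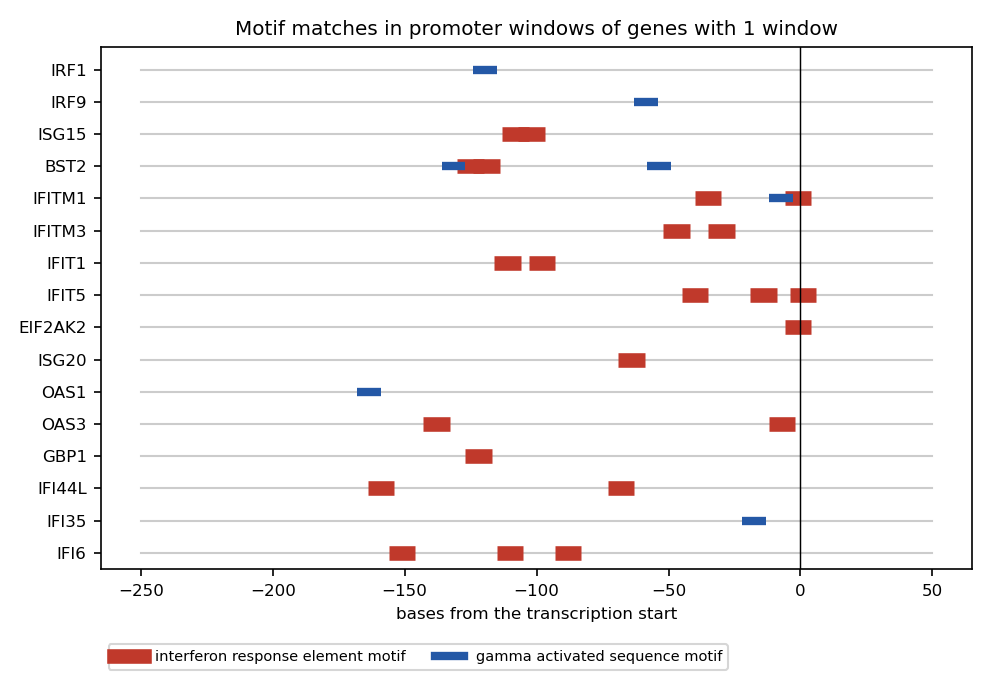
Matches in the promoter windows of the members that have 1 window and at least 1 match, by distance in bases from the transcription start. Red blocks are the interferon response element motif and blue blocks the gamma activated sequence motif; most red blocks lie within the last 150 bases before the start, and IRF1, IRF9, OAS1 and IFI35 have blue blocks only.

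The arrays differed somewhat in median signal, and 1 of them stood apart in a control. Median signal over all probe sets was 106.6 in treated and 115 in untreated SUP-B15, and 107.6 in treated and 95.5 in untreated BV-173. The 3′/5′ ratio of GAPDH, which rises as RNA degrades, lay between 1.12 and 1.20, and that of ACTB between 2.08 and 2.40. Mean signal of the 3 control probe sets for 18S ribosomal RNA was 2817 in treated BV-173, against 1513 to 1596 in the other 3 arrays. What part this had in the responses of BV-173 was not tested. As markers of B precursor cells, 8 of 10 fixed genes had a probe set, and all 8 reached the array's median signal in both SUP-B15 arrays and 7 in both BV-173 arrays, MME being the exception. Their summed signal was 95527 in treated and 70155 in untreated SUP-B15, and 44275 in treated and 22391 in untreated BV-173, and its part in the member values was not tested. Summed signal over 5 monocyte genes was 130.7 in treated and 252.3 in untreated SUP-B15, and 77.8 in treated and 114.4 in untreated BV-173. CD14 was at 9.8 or less in every array. CSF1R had 77.7 in treated and 156.4 in untreated SUP-B15, and 39.6 in treated and 11.2 in untreated BV-173. Its signal in untreated SUP-B15 was above that array's median.

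Of the 48 member probe sets, 39 reached their array's median signal in at least 1 array and entered the test, and these covered 29 genes. All 4 arrays reached it for 27 of them and only some for 12, so those 12 could enter through the array in which they were bright. Changes are differences of log2(signal + 24.5), where 24.5 is the 25th percentile of signal over the 4 arrays; they understate the change of dim genes. A single limma fit over all 11818 probe sets that passed gave both the shared effect of STI571 and the line difference, from terms for cell line and treatment, two-sided, at an adjusted p under 0.05. With 1 residual degree of freedom, each error is the value of a trend over brightness and not the probe set's own spread.

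**Figure D2:**
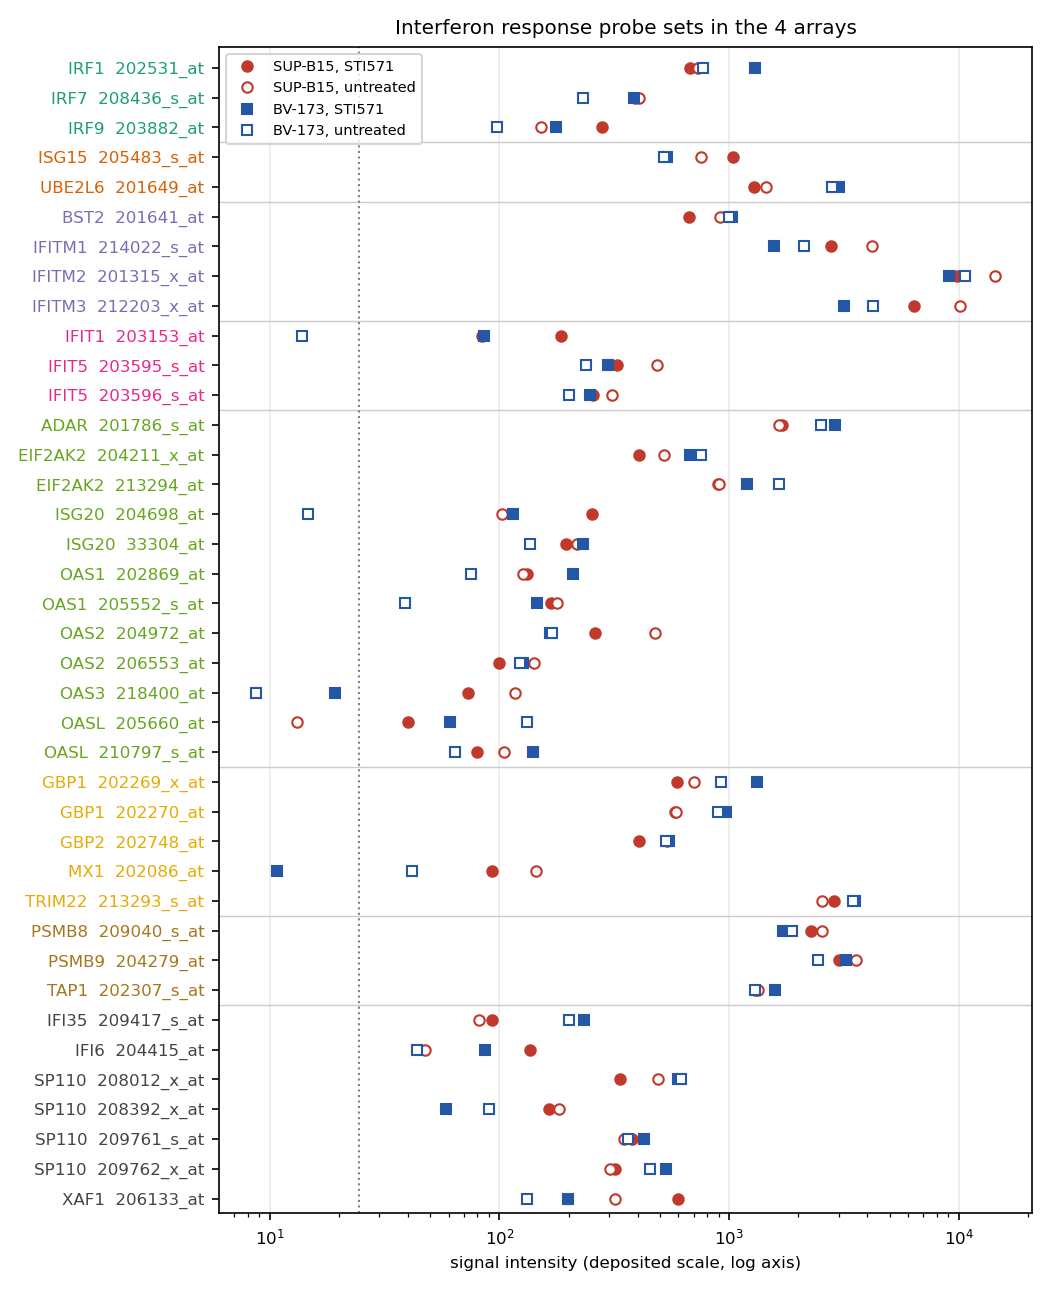
Signal of the 39 probe sets that entered the test (log axis, deposited scale) in the 4 arrays, grouped by role and coloured by it. Circles are SUP-B15 and squares BV-173; filled symbols are STI571 and open ones untreated, and the dotted line marks the added value of 24.5. IFITM1 and IFITM3 show both circles to the right of both squares, and UBE2L6 and ADAR both squares to the right of both circles.

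The first comparison asked whether interferon response genes moved with STI571 in both lines. In the limma fit 0 of the 39 member probe sets were called, higher or lower, against a background of 2.94% of all probe sets (1.39% higher and 1.56% lower). At an unadjusted p under 0.05 there were 4 (10.3%), against 1386 of all 11818 (11.7%), and the smallest adjusted p of a member was 0.165. The median mean change of the members was 0.08, against 0.02 over all probe sets. At least 2-fold higher signal after STI571 was found for 2 member probe sets in SUP-B15 (background 4.39%) and for 4 in BV-173 (6.85%). At least 2-fold lower signal was found for 0 in either line (5.34% in SUP-B15 and 5.1% in BV-173). These shares are near the background and give no result about the members as a group.

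The transcription factors of the response had probe sets for IRF9, IRF1 and IRF7. IRF9, the DNA-binding part of the complex with STAT2, had a signal of 280.2 with STI571 and 151.9 without in SUP-B15, and 175.8 with and 97.8 without in BV-173. The treated array was brighter in both lines, by log2 changes of 0.79 and 0.71, and the mean of 0.75 (SE 0.41) was not called (adjusted p = 0.497). IRF1, a factor that is induced by type II interferon and activates class I genes, had 677.5 and 734.1 in treated and untreated SUP-B15 and 1295 and 765.8 in treated and untreated BV-173. IRF7, which drives the interferon genes in infected cells, had 390.3 and 405 in treated and untreated SUP-B15 and 384.8 and 232 in treated and untreated BV-173. Both thus gave log2 changes near 0 in SUP-B15 (−0.11 for IRF1 and −0.05 for IRF7) and positive ones in BV-173 (0.74 and 0.67), and neither was called (adjusted p = 0.707 and 0.806). The windows of IRF9 and IRF1 held the gamma activated sequence motif and no interferon response element motif.

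ISG20, an exonuclease of single-stranded RNA, had the greatest mean change of the members. Its probe set 204698_at had a signal of 252.1 with STI571 and 103 without in SUP-B15, and 114.6 with and 14.6 without in BV-173. With 24.5 added to each signal, this probe set was 2.17-fold higher after STI571 in SUP-B15 and 3.56-fold higher in BV-173. It was the only member probe set at least 2-fold higher in both lines (background 0.846%), and it was not called (mean log2 change 1.47, SE 0.59, adjusted p = 0.21). This probe set reached the array's median in the treated arrays alone. It thus entered the test through the arrays in which it was brighter, and its rise is no separate support. With a pseudocount of 98 it was under 2-fold in both lines (0.80 in SUP-B15 and 0.92 in BV-173). The second probe set, 33304_at, gave 195.8 and 216.6 in treated and untreated SUP-B15 and 232 and 135.8 in treated and untreated BV-173. It moved by −0.13 on the log2 scale in SUP-B15 and 0.68 in BV-173, so the probe sets of the gene disagreed in SUP-B15.

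OAS enzymes make 2′-5′ oligoadenylates on double-stranded RNA, which activate RNase L. OAS1 was brighter after STI571 in BV-173 by both of its probe sets, 202869_at at 209.5 with and 75.1 without the drug and 205552_s_at at 145.3 with and 38.9 without. In SUP-B15 the same probe sets had 131.7 with and 126.1 without, and 166.8 with and 178.9 without. The log2 changes were thus 0.05 and −0.09 in SUP-B15 and 1.23 and 1.42 in BV-173, and the mean over lines was not called (adjusted p = 0.713 and 0.719). For OAS2, a larger enzyme of the family, 204972_at had 261.8 and 476.5 in treated and untreated SUP-B15 and 165.5 and 169.7 in treated and untreated BV-173. Its log2 change of −0.81 was the most negative of any tested member in SUP-B15, beside −0.03 in BV-173 (adjusted p of the mean = 0.746), and 206553_at gave −0.41 and 0.05. OAS3, the family member that responds best to long double-stranded RNA, was dim in BV-173, with 73.3 and 116.8 in treated and untreated SUP-B15 and 19.2 and 8.7 in treated and untreated BV-173. The probe sets of OASL, a family member without enzyme activity, went against each other. 205660_at gave log2 changes of 0.78 in SUP-B15 and −0.88 in BV-173, while 210797_s_at gave −0.31 in SUP-B15 and 0.89 in BV-173, at signals between 13.1 and 139.4.

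EIF2AK2, the kinase PKR that halts translation on double-stranded RNA, gave negative values by both probe sets. 213294_at had 898.7 and 902.1 in treated and untreated SUP-B15 and 1199 and 1644 in treated and untreated BV-173 (log2 changes −0.01 and −0.45). 204211_x_at gave −0.35 in SUP-B15 and −0.15 in BV-173, and neither was called (adjusted p = 0.815 and 0.82). With a common median the SUP-B15 value of 213294_at turned to 0.10. ADAR, which edits double-stranded RNA and so keeps it from the sensors, had 1698 and 1648 in treated and untreated SUP-B15 and 2878 and 2504 in treated and untreated BV-173, log2 changes of 0.04 and 0.20.

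IFITM proteins sit in cell membranes and block the fusion of enveloped viruses. IFITM1 had a signal of 2787 with STI571 and 4189 without in SUP-B15, and 1568 with and 2128 without in BV-173. IFITM3 had 6398 with and 10115 without in SUP-B15, and 3161 with and 4214 without in BV-173. IFITM2 had 9824 with and 14382 without in SUP-B15, and 9093 with and 10654 without in BV-173. All 3 were dimmer after STI571 in both lines, with mean log2 changes of −0.51 (SE 0.21) for IFITM1, −0.54 (SE 0.20) for IFITM3 and −0.39 (SE 0.21) for IFITM2. None was called (adjusted p = 0.211, 0.165 and 0.494). The direction held in both lines under quantile normalization and with a common median. The genes are close paralogs and their probe sets carry the maker's marks for probes shared between transcripts (_s_at or _x_at), so 3 separate changes cannot be read from them. BST2, tetherin, which holds budding virus on the cell, had 668.5 and 912.5 in treated and untreated SUP-B15 and 1026 and 994 in treated and untreated BV-173.

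IFIT proteins bind viral RNA ends that lack the host's cap methylation. IFIT1 had 186 with STI571 and 84.3 without in SUP-B15, and 85.3 with and 13.8 without in BV-173, log2 changes of 0.95 and 1.52. The mean of 1.24 (SE 0.69) was not called (adjusted p = 0.503), and the change in BV-173 ranged from 0.71 to 2.54 over the pseudocounts and scalings tried. With quantile normalization, a common median or a pseudocount of 1 it reached 2-fold in both lines, the SUP-B15 values being 1.01, 1.04 and 1.13. On the deposited scale IFIT1 reached the median in treated SUP-B15 alone, so it entered the test through an array in which it was brighter. IFIT5 did not share the rise, with log2 changes of −0.55 in SUP-B15 and 0.29 in BV-173 for 203595_s_at, and −0.25 and 0.27 for 203596_s_at. IFIT3 stayed below the median in every array, at 97.7 and 91.8 in treated and untreated SUP-B15 and 98.1 and 91.7 in treated and untreated BV-173.

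ISG15, the ubiquitin-like modifier, had 1037 with STI571 and 756.9 without in SUP-B15, and 534.7 with and 521 without in BV-173. Its log2 changes were 0.44 and 0.04, and the mean was not called (adjusted p = 0.821). UBE2L6, the conjugating enzyme that passes ISG15 to its targets, had 1282 and 1442 in treated and untreated SUP-B15 and 3018 and 2810 in treated and untreated BV-173 (−0.17 and 0.10).

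Among the GTPases and other effectors, MX1, a dynamin-like GTPase that traps viral nucleoproteins, had 92.4 and 143.6 in treated and untreated SUP-B15 and 10.7 and 41.5 in treated and untreated BV-173. Its log2 changes were −0.52 and −0.91 (adjusted p of the mean = 0.847). GBP1, a guanylate-binding protein that coats intracellular pathogens, gave −0.23 in SUP-B15 and 0.51 in BV-173 by 202269_x_at, and −0.03 and 0.11 by 202270_at. GBP2 of the same family gave −0.39 and 0.04. TRIM22, a ubiquitin ligase with antiviral activity, was bright in all arrays, with 2864 and 2546 in treated and untreated SUP-B15 and 3530 and 3450 in treated and untreated BV-173. These 4 genes stayed under a 2-fold change in both lines on this scale. MX1 passed it in BV-173 with quantile normalization (−1.04), a common median (−1.01) and a pseudocount of 1 (−1.86).

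The antigen processing members also stayed under 2-fold. TAP1, which moves peptides into the endoplasmic reticulum, had log2 changes of −0.04 in SUP-B15 and 0.27 in BV-173. For the immunoproteasome subunits they were −0.16 and −0.13 for PSMB8, and −0.24 and 0.40 for PSMB9. Adjusted p lay between 0.891 and 0.947 for the 3 genes.

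Of the other induced genes, XAF1, a proapoptotic antagonist of XIAP, had 596.2 with STI571 and 319.8 without in SUP-B15, and 198.7 with and 131.8 without in BV-173. It was brighter after treatment in both lines (log2 changes 0.85 and 0.51) without being called (adjusted p = 0.362). IFI6, a small membrane protein of the endoplasmic reticulum and mitochondria, had 136.2 with and 47.4 without in SUP-B15, and 86.7 with and 43.9 without in BV-173. With 24.5 added to each signal, it was the second member that reached 2-fold in SUP-B15, at 2.24-fold, beside 1.63-fold in BV-173 (adjusted p = 0.714). IFI6 reached the median in treated SUP-B15 alone, so it entered the test through the array in which it was brighter. IFI35, a leucine zipper protein, gave 0.14 and 0.19. The 4 probe sets of SP110, a nuclear body protein, did not go the same way: 209761_s_at and 209762_x_at gave 0.07 to 0.22 over both lines, and 208012_x_at and 208392_x_at gave −0.51 to −0.04.

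**Figure D3:**
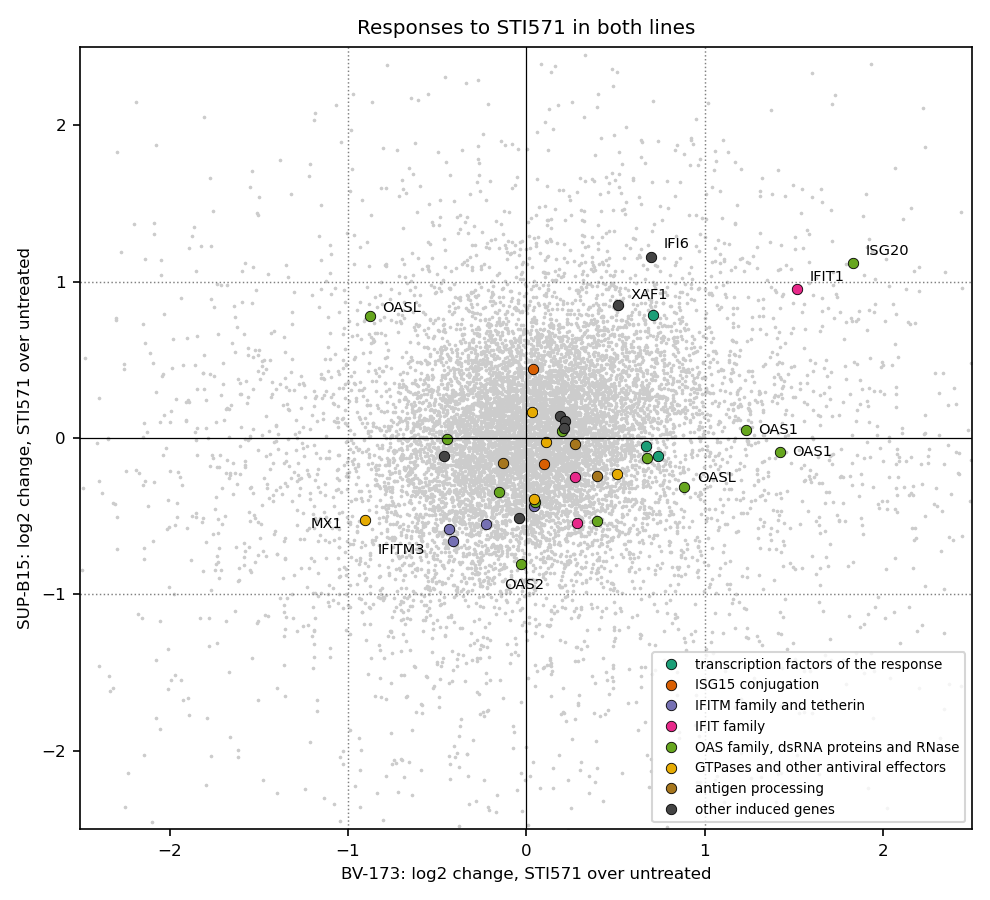
Log2 change after STI571 in BV-173 (horizontal) and SUP-B15 (vertical) for the 39 tested member probe sets, coloured by role, over all tested probe sets in grey; dotted lines mark 2-fold, and grey points beyond 2.5 are not drawn. ISG20 (204698_at) lies past 2-fold in both lines, both OAS1 probe sets past it in BV-173 alone, and the IFITM genes below 0 in both.

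The response was also set side by side in the lines. The members' median change was −0.12 in SUP-B15, against −0.00 over all probe sets, and 0.20 in BV-173, against 0.04. With no filter, over all 48 member probe sets, the medians were −0.13 in SUP-B15 (all probe sets −0.03) and 0.15 in BV-173 (0.05). Signal was dimmer after STI571 in SUP-B15 and brighter in BV-173 for 16 of the 39 (41.0%), against 23.9% of all probe sets, and the reverse held for 1 (2.56%, against 20.5%). With quantile normalization these counts were 14 (35.9%, against 21.6%) and 1 (2.56%, against 22.7%). With a common median they were 8 (20.5%, against 14.5%) and 5 (12.8%, against 32.0%), so the split depends on the scaling. That setting moved the median of all probe sets by 0.10 in SUP-B15 and by −0.16 in BV-173. It brought the members' medians to −0.02 and 0.04 and left their distance to all probe sets at −0.12 in SUP-B15 and 0.15 in BV-173. Each line's response rests on a single pair of arrays, the BV-173 one including the array that stood apart in 18S, and the difference of the responses has no residual degree of freedom and was not tested.

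The second comparison asked how the lines differed with treatment held fixed. Of the 39 member probe sets limma called 10 (25.6%), 5 higher and 5 lower in SUP-B15 than in BV-173, against a background of 26.6%, 13.8% higher and 12.8% lower. The members thus differed between the lines about as often as any probe set. At an unadjusted p under 0.05 there were 18 (46.2%), against 36.3% of all. All 10 had the same sign in the treated and in the untreated pair of arrays. They were called on the mean of those same pairs, so this agreement is no separate check. On the untreated arrays alone the log2 differences were 0.52 to 1.37 for the 5 higher and −0.95 to −0.39 for the 5 lower. The calls rest on the fit: without the trend over brightness none of the 10 was called (adjusted p = 0.0575 to 0.222), and without the treatment term UBE2L6, IFITM1, IFITM3 and XAF1 were (0.0629 to 0.121 for the other 6).

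The 5 called higher in SUP-B15 were XAF1, IFITM3, OAS2, IFITM1 and ISG15. XAF1 was 2.48-fold brighter (log2 difference 1.31, SE 0.33, adjusted p = 0.000498), with the SUP-B15 arrays at 596.2 and 319.8 and the BV-173 arrays at 198.7 and 131.8. IFITM3 was 2.2-fold brighter (1.14, SE 0.20, adjusted p = 5.01e-07) and IFITM1 1.86-fold (0.89, SE 0.21, adjusted p = 0.000131). IFITM2, at 0.27 (adjusted p = 0.378), was not called. The probe sets of these paralogs carry the marks for shared probes, so they cannot be read as separate differences. OAS2 was called by 204972_at (0.98, SE 0.34, adjusted p = 0.0184) while 206553_at gave −0.06 (adjusted p = 0.95), so its probe sets disagreed, and with both averaged it was not called (adjusted p = 0.371). With no filter that call ended too (adjusted p = 0.07), and the difference was 0.59 on the treated and 1.37 on the untreated arrays. ISG15 was 1.65-fold brighter (0.72, SE 0.24, adjusted p = 0.0148), a call that ended with a common median (adjusted p = 0.127).

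The 5 called lower in SUP-B15 belonged to 4 genes, UBE2L6, ADAR, EIF2AK2 and GBP1. UBE2L6 had 1282 and 1442 in SUP-B15, against 3018 and 2810 in BV-173 (log2 difference −1.09, SE 0.21, adjusted p = 2.82e-06). The modifier ISG15 and its conjugating enzyme UBE2L6 therefore differed between the lines in opposite directions. ADAR was lower by −0.67 (SE 0.21, adjusted p = 0.00642). EIF2AK2 was lower by −0.63 with 213294_at (adjusted p = 0.0213) and by −0.61 with 204211_x_at, which was not called (adjusted p = 0.0585). The first of these calls ended with quantile normalization (adjusted p = 0.0513). Both probe sets of GBP1 were called, at −0.76 (adjusted p = 0.00649) and −0.65 (adjusted p = 0.0277); on the untreated arrays alone 202269_x_at gave −0.39.

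Several members differed by more than 2-fold without a call. OAS3 (1.63), MX1 (1.54), ISG20 by 204698_at (1.35) and IFIT1 (1.22) were brighter in SUP-B15 with adjusted p of 0.0769 to 0.229, each with an untreated BV-173 signal of 41.5 or less. OAS3 and MX1 reached the median in untreated SUP-B15 alone, and IFIT1 in treated SUP-B15 alone. These genes thus entered the test only through the line in which they were brighter. IFI35 was lower in SUP-B15, at 92.6 and 81.8 against 232.9 and 201 in BV-173 (log2 difference −1.11, adjusted p = 0.057), and was called with quantile normalization (0.0274) and a common median (0.0265). MX1 was called without the trend over brightness (adjusted p = 0.0424). OASL gave −1.23 by 205660_at (adjusted p = 0.326) and −0.06 by 210797_s_at. SP110 gave 1.02 by 208392_x_at (adjusted p = 0.137), while its other 3 probe sets gave −0.61, −0.56 and −0.10 and were not called. IFI35, OASL by 205660_at and SP110 by 208392_x_at likewise reached the median only in the line in which they were brighter. IRF9, IRF7 and IRF1 had 0.57, 0.38 and −0.48 and were not called (adjusted p = 0.112 to 0.37), and neither were TAP1, PSMB8 and PSMB9 (0.127 to 0.742). Of the 8 genes with several tested probe sets, 6 had the same sign in all of them for the line, 4 for the response in SUP-B15 and 5 for the response in BV-173.

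**Figure D4:**
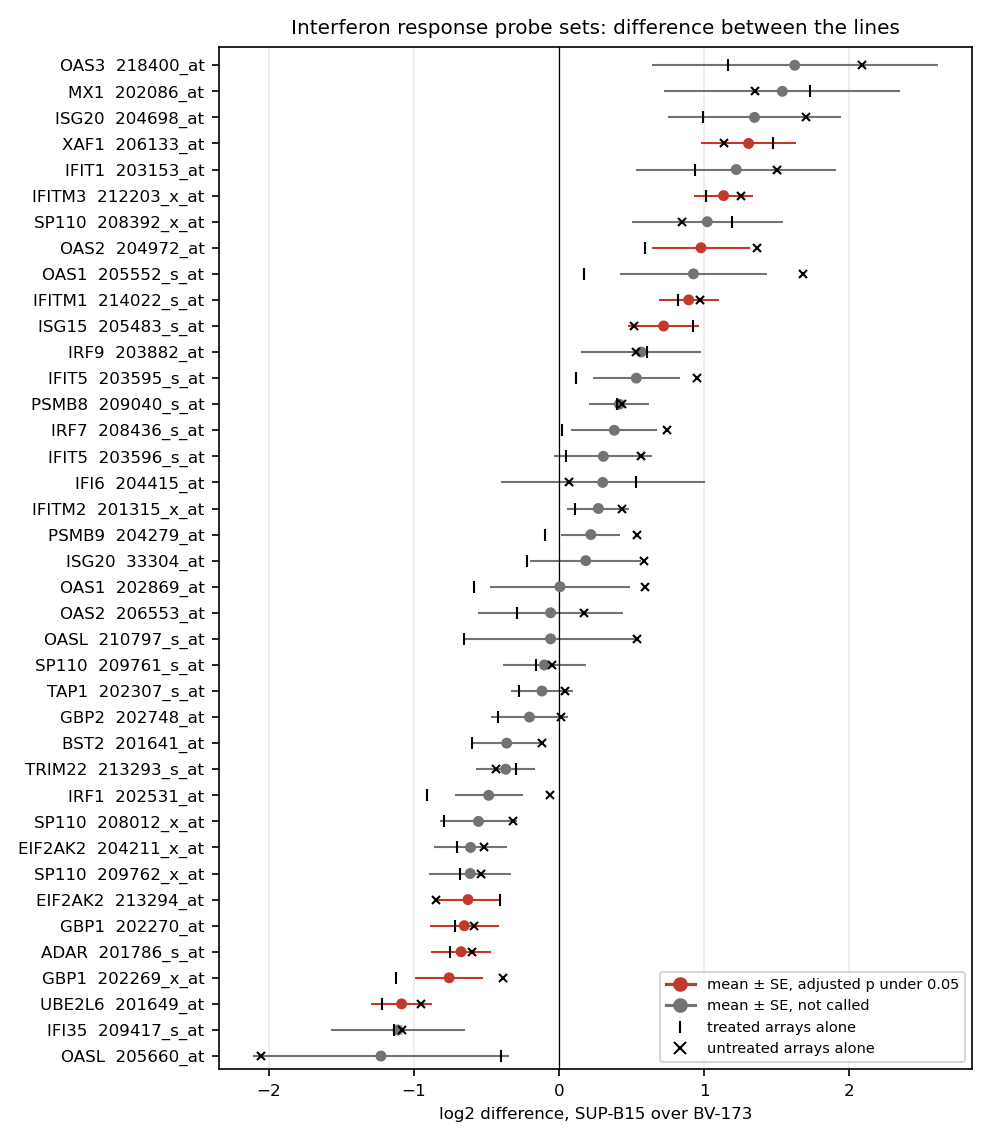
Log2 difference of SUP-B15 over BV-173 for the 39 tested member probe sets, as the mean of the treated and untreated pairs with its SE (horizontal bars), red where the adjusted p was under 0.05. Vertical ticks are the treated arrays alone and crosses the untreated arrays alone; the 10 red points have both on the same side of 0.

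The 9 member probe sets below the median in every array had signals between 2 and 98.1 and covered IFI27, IFI44, IFI44L, IFIT2, IFIT3, MX2, RSAD2 and SAMHD1. Viperin, encoded by RSAD2, an enzyme that makes a chain-terminating nucleotide, lay between 5.6 and 39.2. IFI27, a mitochondrial protein gene that is among the strongest induced in blood cells, lay between 5.2 and 19.8. No detection calls were used here, so these signals were not set against a background, and none of these probe sets was tested.

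For the lists that follow, the background over all probe sets is again 1.39% called higher and 1.56% lower for STI571, and 13.8% higher and 12.8% lower in SUP-B15. All 14 interferon genes with a probe set stayed below the median in every array, between 1.4 and 95.5, and included IFNB1 and IFNG. Of the receptor and kinase list (8 of 10 genes with a probe set, 9 tested probe sets), 0 were called for STI571, while 2 were called higher and 1 lower in SUP-B15. JAK1, the kinase shared by type I and type II receptors, had 2573 and 1962 in treated and untreated SUP-B15, against 982.1 and 685.2 in BV-173 (log2 difference 1.43, SE 0.22, adjusted p = 1.1e-09). IFNAR2, the signalling chain of the type I receptor, was called by 204786_s_at (1.35, adjusted p = 0.000635) and not by 204785_x_at (0.33, adjusted p = 0.381). IFNGR1 was lower in SUP-B15 by 211676_s_at (−0.80, adjusted p = 0.0284) and not called by 202727_s_at (−0.43, 0.137). IFNGR2 and TYK2 were not called (0.09 and 0.52), and the single probe set of IFNAR1 did not pass the filter.

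Of 18 tested probe sets for nucleic acid sensors and their adaptors, 0 were called higher and 1 lower for STI571 and 0 between the lines. The one called was UNC93B1, the chaperone of endosomal Toll-like receptors, at 76.9 and 293 in treated and untreated SUP-B15 and 187.8 and 358.2 in treated and untreated BV-173 (mean log2 change −1.25, SE 0.37, adjusted p = 0.0322).

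Negative regulators of interferon signalling gave 20 tested probe sets, of which 0 were called higher and 1 lower for STI571, and 3 higher and 1 lower in SUP-B15. USP18, the protease that removes ISG15 and blocks IFNAR2, separated the lines furthest of all probe sets on this list. It had 790.5 and 644.7 in treated and untreated SUP-B15, against 11 and 70.9 in treated and untreated BV-173 (log2 difference 3.67, SE 0.39, adjusted p = 8.36e-19), with log2 changes after STI571 of 0.28 and −1.43 (adjusted p of the mean = 0.664). USP18 reached the median in SUP-B15 alone, so it entered the test through the line in which it was brighter. The repressor IRF2 was lower in SUP-B15 (−1.31, adjusted p = 0.0001). PTPN6, the phosphatase SHP-1, fell after STI571 in the fit (−0.65 in SUP-B15 and −1.25 in BV-173, adjusted p = 0.00442) and was higher in SUP-B15, at 893.2 and 1414 against 347.2 and 858.7 in BV-173 (adjusted p = 0.000201). SOCS1, an inhibitor of JAK kinases, was not called by either tested probe set, for STI571 (adjusted p = 0.793 and 0.974) or the line (0.0836 and 0.667).

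A wider list of interferon-induced genes gave 59 tested probe sets of 36 genes, with 0 called higher and 5 lower for STI571. All 5 were probe sets of CASP1, the inflammasome protease, with mean log2 changes of −1.87 to −1.42, so they count as 1 gene. TRAFD1, a feedback regulator of innate signalling, and APOL1, a secreted trypanolytic apolipoprotein, were at least 2-fold higher in both lines by 202837_at (1.08 in SUP-B15 and 1.43 in BV-173) and 209546_s_at (1.28 and 1.92) without a call (adjusted p = 0.247 and 0.396). The APOL1 probe set was dim without the drug, at 28.3 in SUP-B15 and 20.5 in BV-173. It reached the median in treated BV-173 alone, and 202837_at in the treated arrays alone. Both thus entered the test through arrays in which they were brighter. The second TRAFD1 probe set, 35254_at, gave −0.18 and 0.10. Between the lines 10 of the 59 were called higher and 12 lower in SUP-B15, against the 13.8% and 12.8% of all probe sets.

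Class I antigen presentation genes gave 36 tested probe sets of 15 genes, with 0 called for STI571 and 5 called higher and 1 lower in SUP-B15. B2M, the invariant chain of class I molecules, had mean log2 changes of 0.03 and 0.07 by its 2 probe sets (adjusted p = 0.986 and 0.962). The median change over the list was 0.15 in SUP-B15 and 0.12 in BV-173. HLA probe sets share sequence between the class I genes, so they are not read as single genes.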

How the data were processed

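Each of the 4 samples was hybridised to 1 array. The labels' protocols name RNeasy extraction and biotin labelling, and the submitters' processing notes name GCOS 1.3. Each deposited column holds linear signal intensity, 1 value for a probe set. The 2%-trimmed mean of each column was 500.2, so the authors' intensity values had been scaled array by array; the sources used here do not give the summary method or the target of that scaling.

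The platform annotation gave 1 symbol for 19064 of 22277 probe sets, 62 being controls, and 19052 matched RefSeq by Entrez ID. Probe sets with several symbols (1043) or none (2108) were left out. Members and lists were chosen with earlier results of these data known. Values were compared as log2(signal + 24.5) for probe sets that reached the array's 50th percentile in 1 or more arrays. limma 3.58.1 (R 4.3.3) was fitted to all 4 arrays with a trend over intensity and with Benjamini-Hochberg adjustment over 11818 probe sets, and the estimated prior degrees of freedom were infinite. The cell line pairs treated with untreated arrays, from the labels. With 1 array in each group, the fit's residual is the disagreement between the lines' responses to STI571, not spread between replicates. The p-values rest on that residual pooled over probe sets by intensity, and the number of arrays limits their precision. Within-line responses are values without a test. Every tested member is given by value; pathway genes are named if called for STI571, if 2-fold changed the same way in both lines, or if in a fixed set. Some items of that set are not reported here. Marker lists covered B precursor, plasmacytoid dendritic, monocyte, T and NK cells and fibroblasts. Alternatives changed the scaling, pseudocount, filter, probe set choice, block, trend, prior and fold threshold; 1, the untreated arrays alone, was added after seeing the data.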

Additional observations from a re-analysis of the deposited data

Results flagged for a closer look

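Opposite movement of the lines, at least 2-fold in each, was found for 1 probe set of the sensor list and 1 member below the filter. IRF5, a transcription factor of Toll-like receptor signalling, had 26.5 and 123.2 in treated and untreated SUP-B15 and 112.3 and 8.7 in treated and untreated BV-173, log2 changes of −1.53 and 2.04 that differ by −3.58. SAMHD1, a triphosphatase that depletes nucleotides, had 4.9 and 43.3 in treated and untreated SUP-B15 and 58.5 and 7.2 in treated and untreated BV-173, log2 changes of −1.21 and 1.39 that differ by −2.59. The SAMHD1 probe set lay below the median in every array and these signals were not set against a background. Both differences come from single pairs of arrays and were not tested. Of all 11818 tested probe sets 144 moved 2-fold in opposite directions, and of the 39 tested member probe sets 0 did.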

How the results depend on the processing

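No member was called for STI571 under any of the 12 alternatives (smallest adjusted p 0.0924, with the 75th percentile filter); at an unadjusted p under 0.05 there were 0 to 5. Without the replicate block for the cell line limma called 0 of all probe sets for STI571, with 119 at an unadjusted p under 0.05, and 0, with 948, when the intensity trend was dropped. The member counts higher and lower in SUP-B15, 5 each, became 2 and 3 with gene-specific probe sets only, a setting that tested 19 member probe sets, 3 and 1 with no replicate block (treatment left out), and 1 and 0 without the intensity trend, the cause of these last losses being not tested. They stayed at 4 to 5 and 4 to 6 in the other 9. Counts of 2-fold responses, 2 higher and 0 lower in SUP-B15 and 4 and 0 in BV-173, moved as follows. BV-173 had 2 lower with quantile normalization, a common median and a pseudocount of 1. SUP-B15 had 4 higher with a pseudocount of 1 and 2 lower with no filter. With a pseudocount of 98, and with the 75th percentile filter, 0 were higher in either line. With the brightest probe set per gene 1 was higher in SUP-B15 and 2 in BV-173, and with probe sets averaged by gene 1 in SUP-B15. At 1.5-fold 6 were higher and 2 lower in SUP-B15, and 10 and 2 in BV-173; at 3-fold 0 were higher in SUP-B15 and 1 in BV-173. The median mean change lay between 0.00 and 0.12. Signal over background is not known for these arrays, which limits what the dim members can show.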

Other observations

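Among the wider interferon-induced genes, chosen after their values were seen, the lines differed in opposite directions. SAMD9, an antiviral factor, had 343 and 158.2 in treated and untreated SUP-B15, against 70.4 and 61.2 in treated and untreated BV-173 (log2 difference 1.52, SE 0.48, limma adjusted p = 0.00878), and RTP4, a receptor chaperone, differed by 1.03 (SE 0.32, adjusted p = 0.00826). GCH1, the first enzyme of tetrahydrobiopterin synthesis, had 329.5 and 285 in SUP-B15, against 4.8 and 69.3 in BV-173. TRIM14, an adaptor of antiviral signalling, was lower in SUP-B15 by all 3 tested probe sets (−2.85 to −1.79), and WARS1, the tryptophanyl-tRNA synthetase, by both (−1.73 and −1.06). The surface protein gene LY6E had 5.7 and 6.1 in treated and untreated SUP-B15, against 171.9 and 495.3 in treated and untreated BV-173. SAMD9 and GCH1 reached the median in SUP-B15 alone and LY6E in BV-173 alone, in each case the line in which the gene was brighter.

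Summed signal over the other markers was 4860 and 4070 in treated and untreated SUP-B15 and 2668 and 1461 in treated and untreated BV-173 for 4 plasmacytoid dendritic cell genes, of which TCF4, also active in B precursors, made up most. For 7 T and NK cell genes the sums were 404.9 and 533.8 in SUP-B15 and 587.7 and 345.4 in BV-173, and for 6 fibroblast genes 218.6 and 334.7 in SUP-B15 and 391.1 and 289 in BV-173. Their part in the member values was not tested.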
